A study of Mus musculus with 9 samples.

Results

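Kidney RNA of hindlimb-unloaded mice was compared with that of ground controls, 3 libraries against 3, in the genes that reached 1 FPKM (fragments scaled to gene length and to the library, a level that can be compared between genes) in at least 3 of the 6 libraries. That rule kept 11590 of the 54532 genes in the deposited table, of which 10306 were protein-coding, 670 pseudogenes and 614 of other classes. Of the genes left out, 2400 reached the minimum in 2 libraries (median of their mean levels 0.934 FPKM), and of those kept 1320 reached it in exactly 3 (1.30 FPKM).

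All animals were male C57BL/6J mice aged 4 months. Ground controls were caged normally and untreated, and unloaded mice were given vehicle, so unloading and vehicle cannot be told apart and "unloaded" stands for both. The length of unloading is not given in the sources used here. A further group, unloaded mice treated with 4-phenylbutyric acid (4-PBA) at 100 mg per kg per day, took no part in the comparison. Libraries are called GC1 to GC3 and HU1 to HU3, and sets of 3 values below follow that order. The labels speak of replicates in each cohort without tying each library to a separate mouse, so p-values measure the spread between these libraries, which may be technical.

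Hindlimb unloading suspends a rodent by the tail so that the hind limbs bear no weight and body fluid shifts towards the head, and it serves as a ground model of weightlessness and disuse. The kidney filters plasma at the glomerulus, where podocytes cover the capillaries, and recovers most of the filtrate in the proximal tubule, a segment rich in mitochondria that also secretes drugs and organic ions and makes glucose. The thick ascending limb, distal convoluted tubule and collecting duct then adjust salt, acid and water. Fibroblasts, pericytes and endothelium lie between the tubules within a scaffold of collagens, elastic fibres and proteoglycans. The study asked how unloading relates to stress of the endoplasmic reticulum (ER), the compartment in which secreted and membrane proteins are folded.

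In the unloaded libraries 18 of 22 proximal tubule transport genes, 15 of 19 cytochrome P450 genes, 13 of 28 antioxidant genes and 17 of 37 nuclear complex I genes were lower. Higher were 12 of 18 collagens, 9 of 14 elastic fibre genes, 7 of 10 small leucine-rich proteoglycans and 5 of 9 fibroblast markers, and of 5 ER stress sensors and factors 0 passed. A gene was called where limma on log2(FPKM + 1) gave a Benjamini-Hochberg adjusted p under 0.05 over all 11590 genes. By that rule 946 genes were higher and 945 lower, 16.3% of those tested (8.16% higher and 8.15% lower), and the smallest adjusted p was 0.000489. Counts of each gene list below are to be read beside these shares. The groups did not overlap in 38.8% of genes (18.6% higher and 20.3% lower in the unloaded libraries), including each of the 1891 called. Where a called gene is said below to have groups apart, this adds nothing to its call. The median log2 difference over all genes was -0.06, that of genes called higher was 1.62 and that of genes called lower was -1.50. Among the 285 genes with a mean of 100 FPKM or more, 85 were lower and 33 higher, whereas of the 6611 genes under 5 FPKM 282 were lower and 532 higher. In 372 of the 946 higher genes (337 of them with a mean under 5 FPKM) no control reached 1 FPKM, and in 119 of the 945 lower genes no unloaded library did. Such genes entered the test only through the group in which they are high, so their calls and the counts that hold them support nothing on their own, and those named below are marked.

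The groups also differed as libraries. The mitochondrial genome took 18.9%, 14.8% and 49.7% of reads in GC1 to GC3 and 68.7%, 79.3% and 63.7% in HU1 to HU3. Reads outside it numbered 5780141 to 12893802 in ground controls and 1568888 to 3037972 in unloaded libraries, so that 1 read on a gene of 2 kb was worth 0.0209 to 0.0457 FPKM in the former and 0.0737 to 0.161 FPKM in the latter. Pseudogenes took 1.16% to 1.76% of those reads in ground controls and 3.73% to 7.54% in unloaded libraries. Genes at 1 FPKM or more numbered 10633 to 11221 in ground controls and 12300 to 15341 in unloaded libraries. These measures differed between the groups, and their part in the results below was not tested. A fit with the mitochondrial share as a covariate called 0 genes, and no gene group below kept a call in it. Limma gave 1991 genes an unadjusted p under 0.05 in that fit, against 3791 without the covariate. The share did not overlap between the groups, so such a fit cannot tell it apart from unloading, and no conclusion is drawn from the lost calls. The first principal component, with 55.3% of the variance, separated the groups, and the second, with 23.8%, separated HU1 from HU2. The count of calls fell to 436, 664 and 898 when GC1, GC2 or GC3 was left out, and was 2148, 1906 and 1379 without HU1, HU2 or HU3. It was 476 when genes of any level were tested, where 8 genes of proximal tubule transport, 8 of cytochrome P450, 4 each of complex I and antioxidant defence, and 5 collagens still passed.

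How the libraries are scaled set the balance of directions. Scaling to total reads moved the median of all genes to -0.83 and gave 456 higher and 3842 lower genes. Scaling to reads outside the mitochondrial genome moved it to 0.11, with 1161 higher and 628 lower. Medians of gene groups are therefore read below against the median of all genes. With scaling to total reads the lower genes numbered 32 of 37 in complex I, 24 of 35 in complexes II to V and 20 of 28 in antioxidant defence. They were 14 of 25 in fatty acid oxidation (0 higher), 6 of 15 in the citric acid cycle, 6 of 17 ER chaperones and 1 of 5 ER sensors and factors. Lower counts under this scaling, here and below, are to be read beside 3842 of all 11590 genes. Those of the citric acid cycle, ER chaperones and ER sensors are not set apart from that share. Under the same scaling 9 collagens were higher and 3 lower, with 2 and 3 for basement membrane, 8 and 1 for elastic fibres, 5 and 1 for proteoglycans and 3 and 2 for proteases and inhibitors. With scaling to reads outside the mitochondrial genome 8 complex I genes and 3 of ER-associated degradation were lower.

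**Figure D1:**
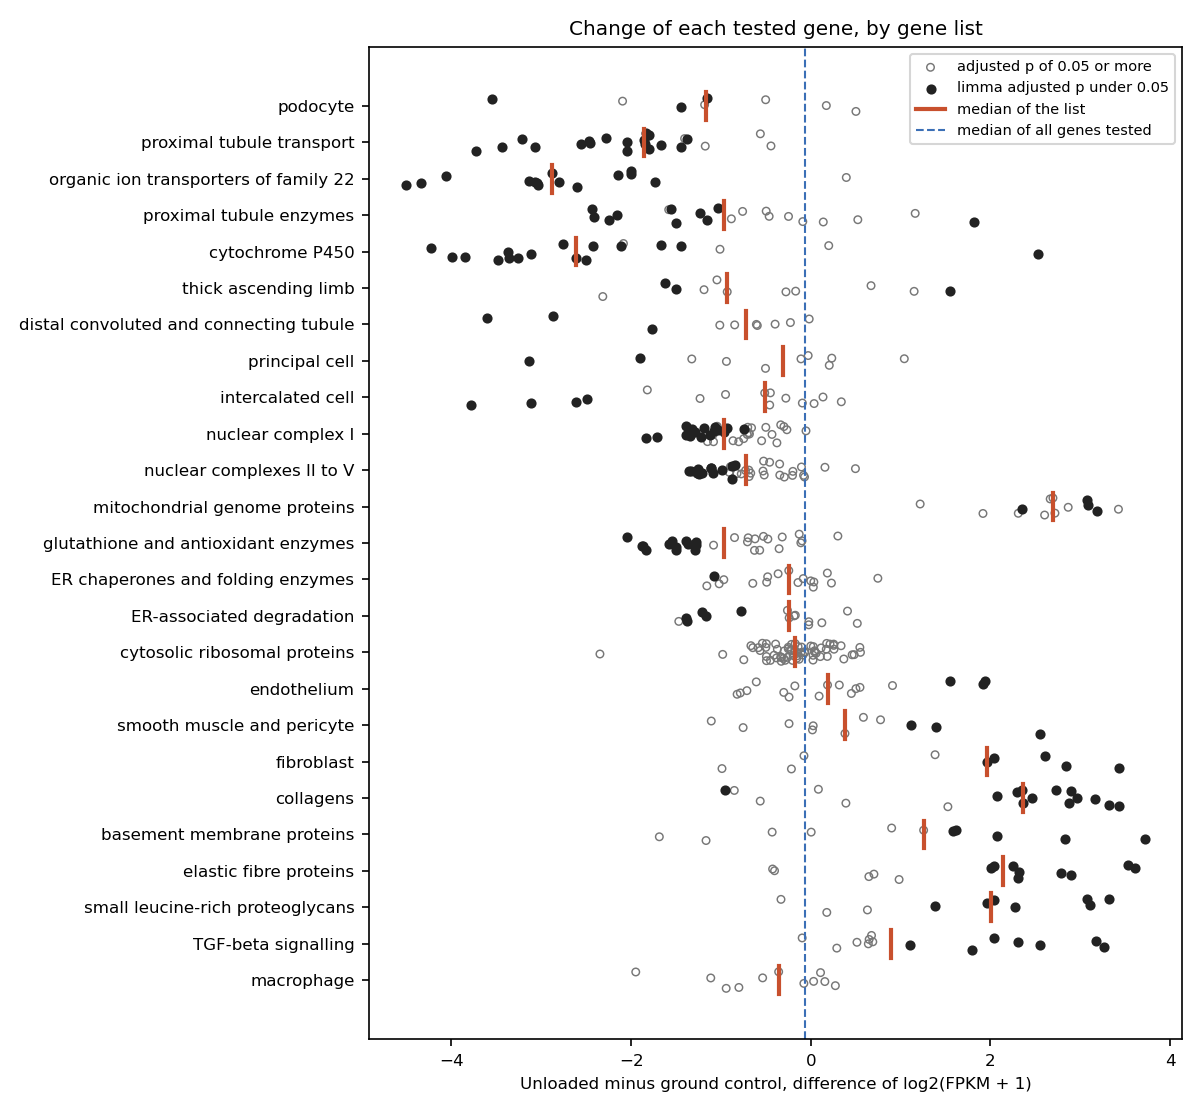
Difference of each tested gene between unloaded and ground control libraries (x axis, difference of log2(FPKM + 1)), grouped by gene list (y axis); filled points passed limma at an adjusted p under 0.05, open points did not, the orange bar is the list median and the dashed line the median of all 11590 genes (-0.06). The proximal tubule, family 22 and cytochrome P450 lists lie to the left (medians -1.85, -2.88 and -2.61), and the collagen, elastic fibre and proteoglycan lists to the right (2.36, 2.15 and 2.00).

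Transport genes of the proximal tubule fell almost as a set. Of 22 listed, all tested, 18 were lower and none higher, with a median of -1.85 and a range of -3.73 to -0.44. Their summed level was 1224 to 1541 FPKM in the ground controls and 113 to 285 FPKM in the unloaded libraries, so the groups did not overlap. In whole tissue, fewer cells of a type and less RNA per cell cannot be told apart.

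Slc34a1 (ENSMUSG00000021490, chr13:55398187-55415592 in mm10), the sodium-phosphate cotransporter that recovers most filtered phosphate, had 674, 497 and 694 FPKM in ground controls and 29.7, 100.4 and 31.4 FPKM after unloading. HU2 was the highest of the unloaded libraries and still far below the lowest control, and the log2 difference was -3.73 ± 0.47 (SE, limma adjusted p = 0.00376). The sulfate transporter Slc13a1 had 21.7, 40.6 and 18.3 FPKM in ground controls and 0.889, 2.2 and 2.79 FPKM after unloading (-3.21 ± 0.39 SE, limma adjusted p = 0.00349). Slc5a8, which takes up lactate and other monocarboxylates, had 24.4, 27 and 18.5 FPKM in ground controls and 2.17, 4.88 and 3.35 FPKM after unloading (-2.47 ± 0.30 SE, limma adjusted p = 0.0035). Slc7a13, an aspartate and cystine transporter of the late proximal tubule, had 385, 252 and 261 FPKM in ground controls and 18.5, 53 and 39.8 FPKM after unloading (-3.07 ± 0.40 SE, limma adjusted p = 0.00415). HU1 was the lowest library in each of these 4 genes, and no unloaded library reached a control.

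The 4 members that did not pass, Slc6a20b, Slc4a4, Slc5a12 and Slc3a1, also had negative differences (-1.40, -1.17, -0.56 and -0.44). They are named here because they are the exceptions, a choice made after their values were seen. The count of lower transport genes was 8, 9 and 13 without GC1, GC2 or GC3, 17, 16 and 16 without HU1, HU2 or HU3.

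Family 22 of solute carriers moves organic cations, anions and carnitine across the basolateral and brush border membranes, and much of renal drug secretion runs through it. Of 15 members tested, 14 were lower and none higher, the largest median fall among the nephron lists (-2.88). Slc22a2 (ENSMUSG00000040966, chr17:12584132-12628488), the organic cation transporter OCT2, had 114, 118 and 105 FPKM in ground controls and 2.5, 7.51 and 4.87 FPKM after unloading, a difference of -4.34 ± 0.33 (SE, limma adjusted p = 0.0015). Slc22a7, the organic anion transporter OAT2, had 74.3, 98.7 and 65.3 FPKM in ground controls and 8.77, 13.9 and 9.05 FPKM after unloading (-2.80 ± 0.27 SE, limma adjusted p = 0.00201). For Slc22a22, which carries prostaglandins, the values were 21.3, 16.6 and 20.1 FPKM in ground controls and 1.92, 2.24 and 2.96 FPKM after unloading (-2.60 ± 0.24 SE, limma adjusted p = 0.002). Each control of these 3 genes was several times the highest unloaded library. The same held for Slc22a30, with 29.9, 24.7 and 28.3 FPKM in ground controls and 1.84, 3.53 and 2.23 FPKM after unloading (-3.04 ± 0.26 SE, limma adjusted p = 0.0018).

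Slc22a18, a member of uncertain substrate, ranged more widely after unloading, with 409, 278 and 467 FPKM in ground controls and 6.21, 66.8 and 22.6 FPKM after unloading (-4.06 ± 0.72 SE, limma adjusted p = 0.0113). Slc22a28 was at 0 in HU1, with 39.8, 50.4 and 36.6 FPKM in ground controls and 0, 0.16 and 4.78 FPKM after unloading (-4.51 ± 0.63 SE, limma adjusted p = 0.00498). Slc22a28, Slc22a29 and Slc22a30 are near copies of each other, so how reads were divided among them is uncertain, and Slc22a29 was the family's exception (0.40, limma adjusted p = 0.459). Between 11 and 14 family members were lower whichever library was left out.

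Promoters of 3 of these genes are printed because they belong to transporters that fell together and hold the half-site GTTAAT of HNF1, a homeodomain factor known for its role in proximal tubule transcription. They are RefSeq sequences of GRCm38.p6, the build of the files, from 250 bases before to 50 after the start, all on the plus strand, and were chosen after the values were seen. Slc22a6 and Slc22a8 encode the organic anion transporters OAT1 and OAT3, and had log2 differences of -3.14 and -3.07 (limma adjusted p = 0.00236 and 0.00498). Capitals mark the half-site on either strand, which begins 89 and 61 bases before the start in Slc34a1, 56 bases in Slc22a6 and 81 bases in Slc22a8.
Slc34a1, chr13:55399398-55399697: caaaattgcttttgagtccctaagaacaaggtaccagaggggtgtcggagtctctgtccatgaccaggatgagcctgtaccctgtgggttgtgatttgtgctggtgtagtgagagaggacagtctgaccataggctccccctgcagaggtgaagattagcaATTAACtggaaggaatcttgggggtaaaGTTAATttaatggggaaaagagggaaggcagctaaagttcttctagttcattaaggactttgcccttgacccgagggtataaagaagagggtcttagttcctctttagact
Slc22a6, chr19:8617746-8618045: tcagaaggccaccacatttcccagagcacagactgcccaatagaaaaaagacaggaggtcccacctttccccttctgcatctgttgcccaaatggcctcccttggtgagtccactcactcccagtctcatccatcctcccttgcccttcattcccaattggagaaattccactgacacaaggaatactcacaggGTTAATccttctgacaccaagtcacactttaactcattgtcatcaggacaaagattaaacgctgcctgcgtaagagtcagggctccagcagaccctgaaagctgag
Slc22a8, chr19:8592932-8593231: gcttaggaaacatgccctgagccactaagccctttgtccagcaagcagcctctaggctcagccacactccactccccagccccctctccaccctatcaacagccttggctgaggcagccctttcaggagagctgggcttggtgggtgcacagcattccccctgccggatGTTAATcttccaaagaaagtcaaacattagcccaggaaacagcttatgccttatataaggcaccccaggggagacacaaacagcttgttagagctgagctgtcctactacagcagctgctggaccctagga

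Over all promoters of that length, the half-site was present in 9.70% of 701 belonging to genes called lower, 4.81% of 520 to genes called higher, 4.52% of 8390 to genes tested and 7.20% of the 27025 in the table. Among called family 22 genes 2 of 12 promoters held it, and among called transport genes 2 of 15. The other motifs searched on both strands were HNF4 (CAAAGNCCA), the TATA box (TATAAA), the GC box (GGGCGG), AP-1 (TGANTCA), TEAD (GGAATG) and the E-box of the clock (CACGTG). No motif contains another, and matches that overlap were each allowed. In the order just given, they were found in 2.85%, 11.1%, 53.9%, 4.85%, 12.6% and 12.7% of promoters of genes called lower, and in 1.53%, 7.20%, 65.0%, 4.79%, 12.0% and 10.5% of those of all genes tested. A match describes letters in a window and is not evidence that a factor binds there.

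Metabolic enzymes of the proximal tubule followed in part. Of 20 tested, 9 were lower and 1 higher (median -0.96). Cndp2, a cytosolic dipeptidase, had 538, 542 and 464 FPKM in ground controls and 65.8, 103 and 122 FPKM after unloading (-2.44 ± 0.29 SE, limma adjusted p = 0.0033). Miox, which opens the ring of myo-inositol, had 1090.1, 1071 and 995 FPKM in ground controls and 196, 248 and 264 FPKM after unloading (-2.16 ± 0.25 SE, limma adjusted p = 0.00311). The unloaded values of both genes lay close together and far below the controls. The exception was Dpep1, a brush border dipeptidase, which rose, with 42.4, 47.1 and 47 FPKM in ground controls and 119.8, 211 and 170.1 FPKM after unloading (1.82 ± 0.26 SE, limma adjusted p = 0.0057). The number of lower enzymes was 3, 3 and 6 without GC1, GC2 or GC3, and 5, 8 and 6 without HU1, HU2 or HU3, while Dpep1 was called each time.

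Cytochrome P450 enzymes oxidise fatty acids, steroids and drugs. Of 19 tested, 15 were lower and 1 higher, with a median of -2.61. The fatty acid hydroxylase Cyp4a10 had 159, 196 and 78.2 FPKM in ground controls and 16, 11.7 and 9.65 FPKM after unloading (-3.36 ± 0.37 SE, limma adjusted p = 0.00287). Its relative Cyp4a31 had 109.5, 104 and 69 FPKM in ground controls and 2.74, 8.2 and 6.87 FPKM after unloading (-3.85 ± 0.38 SE, limma adjusted p = 0.00201). Cyp4b1 (ENSMUSG00000028713, chr4:115624725-115647723) had 538, 459.5 and 238 FPKM in ground controls and 9.87, 36.2 and 35 FPKM after unloading (-4.00 ± 0.53 SE, limma adjusted p = 0.00436). In these enzymes GC3 was the lowest control, yet at least several times any unloaded value. Cyp1b1, an enzyme found mostly outside tubules, rose, with 3.77, 5.74 and 5.08 FPKM in ground controls and 20.9, 42 and 39.2 FPKM after unloading (2.53 ± 0.32 SE, limma adjusted p = 0.00396). Cyp2a4 and Cyp2d9, which act on steroids and drugs, had differences of -3.37 ± 0.34 (SE, limma adjusted p = 0.00209) and -4.23 ± 0.69 (SE, limma adjusted p = 0.00892). Members of the 2a, 2d and 4a subfamilies are close copies, so single values among them are uncertain. The count of lower P450 genes was 9, 10 and 13 without GC1, GC2 or GC3, and 14, 15 and 10 without HU1, HU2 or HU3.

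The most abundant transcript to fall was Kap (ENSMUSG00000032758, chr6:133849851-133853762), an androgen-regulated protein of the proximal tubule, with 51020, 47235 and 58419 FPKM in ground controls and 2932, 2862 and 2241 FPKM after unloading. The groups were far apart and each was tight, with a difference of -4.29 ± 0.41 (SE, limma adjusted p = 0.002). Other large falls among protein-coding genes were in Mogat1, a monoacylglycerol acyltransferase (77.1, 63.8 and 61.8 FPKM to 1.83, 1.03 and 5.68 FPKM), in Tmem37 (41.4, 55.7 and 29.7 FPKM to 0, 7.11 and 0.112 FPKM) and in Nat8f1, an acetyltransferase with close copies (245, 238 and 221 FPKM to 12.5, 19.1 and 15 FPKM). Their differences were -4.34 ± 0.43 (SE, limma adjusted p = 0.00201), -4.33 ± 0.76 (SE, limma adjusted p = 0.0109) and -3.85 ± 0.23 (SE, limma adjusted p = 0.00094).

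**Figure D2:**
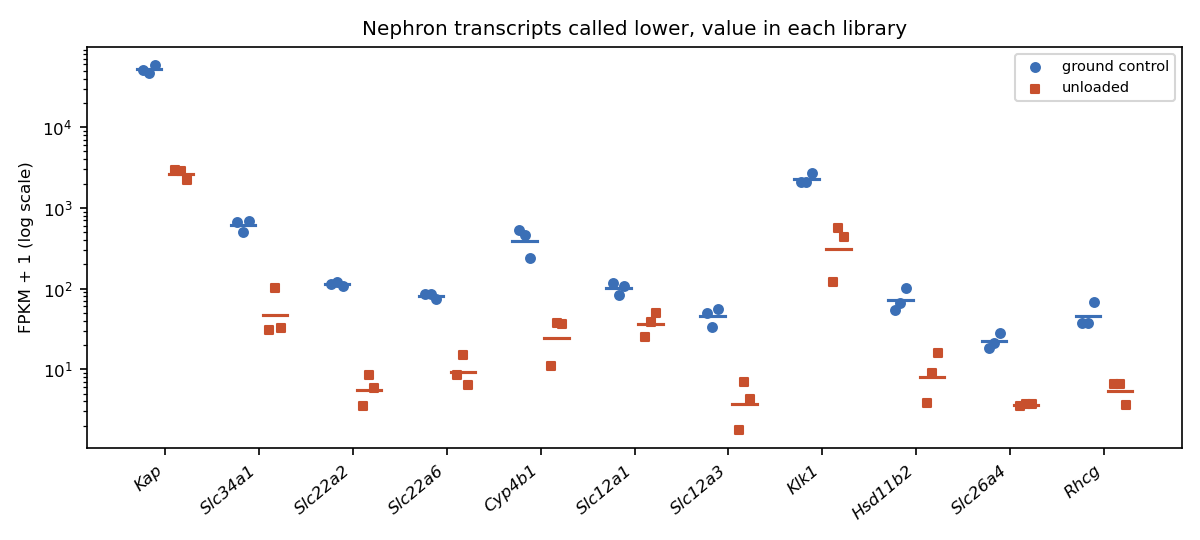
FPKM + 1 (log axis) of 11 nephron transcripts called lower, with 1 point per library (blue circles, ground control; orange squares, unloaded) and a line at the mean of the log values. In each gene all 3 unloaded libraries lie below all 3 ground controls, from Kap at 47235 FPKM or more in controls to Slc12a3 at 0.768 to 5.89 FPKM after unloading.

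The segments beyond the proximal tubule follow in the order of flow. In the thick ascending limb 2 of 11 tested genes were lower and 1 higher (median -0.93), against 8.15% and 8.16% of all genes tested. Slc12a1, the furosemide-sensitive cotransporter, had 118, 82.8 and 106 FPKM in ground controls and 24.1, 37 and 48.4 FPKM after unloading (-1.50 ± 0.30 SE, limma adjusted p = 0.0169). Bsnd, the chloride channel subunit barttin, had 15.6, 9.06 and 17.9 FPKM in ground controls and 3.1, 5.95 and 2.78 FPKM after unloading (-1.62 ± 0.35 SE, limma adjusted p = 0.0212). Ppp1r1b, a phosphatase inhibitor, rose (8.39, 8.36 and 7.14 FPKM to 16.1, 32 and 31 FPKM, 1.55 ± 0.30 SE, limma adjusted p = 0.0154). In all 3 genes the groups were apart. With scaling to total reads 6 of the 11 were lower. Leaving out GC1 removed each of these calls, and Ppp1r1b was also not called without GC2, GC3 or HU3.

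Of 10 distal convoluted and connecting tubule genes 3 were lower and none higher (median -0.73). Slc12a3, the thiazide-sensitive cotransporter, had 49.2, 32.5 and 54.3 FPKM in ground controls and 0.768, 5.89 and 3.3 FPKM after unloading (-3.60 ± 0.49 SE, limma adjusted p = 0.00461). Klk1, tissue kallikrein, had 2072, 2114 and 2665 FPKM in ground controls and 119, 565 and 437 FPKM after unloading (-2.87 ± 0.56 SE, limma adjusted p = 0.0152). S100g, the calcium carrier calbindin-D9k, had 2307, 2187 and 2837 FPKM in ground controls and 575, 612 and 1029 FPKM after unloading (-1.77 ± 0.33 SE, limma adjusted p = 0.0139). It was the single lower gene among 9 of calcium handling, where 8.15% of all genes tested were lower. HU1 held the lowest value of all 3 genes. Without GC1 or GC2, 1 of the list was lower, and without GC3, 2. With scaling to total reads it was 6.

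Principal cells, which take up sodium and water in the collecting duct, had 2 lower genes of 10. Hsd11b2, which shields the mineralocorticoid receptor from glucocorticoids, had 53.1, 65 and 100.5 FPKM in ground controls and 2.82, 7.86 and 14.7 FPKM after unloading (-3.14 ± 0.51 SE, limma adjusted p = 0.00858). The sodium channel subunit Scnn1b had 12.3, 9.48 and 17.3 FPKM in ground controls and 4.33, 3.42 and 1.06 FPKM after unloading (-1.91 ± 0.41 SE, limma adjusted p = 0.0202). HU1 was lowest in the former and HU3 in the latter, and neither overlapped the controls. Aqp2, the vasopressin-regulated water channel, had 91.1, 105 and 98.7 FPKM in ground controls and 204, 61.6 and 59.2 FPKM after unloading (-0.11 ± 0.46 SE, limma adjusted p = 0.899). Its groups overlapped, with HU1 above every control. It is named after its values were seen, as the best known gene of that cell. Only 1 gene of the list was lower without GC1, GC2 or GC3, and 3 were without HU1 or HU2. The number was 4 with scaling to total reads.

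Intercalated cells secrete acid or base. Of 15 genes 4 were lower and none higher (median -0.51). The anion exchanger pendrin, Slc26a4 (ENSMUSG00000020651, chr12:31519827-31559969), had 17.4, 20.4 and 27.1 FPKM in ground controls and 2.53, 2.69 and 2.7 FPKM after unloading, with 3 nearly equal unloaded values (-2.62 ± 0.25 SE, limma adjusted p = 0.002). The ammonia channel Rhcg had 36.5, 36.6 and 67.3 FPKM in ground controls and 5.48, 5.47 and 2.58 FPKM after unloading (-3.11 ± 0.35 SE, limma adjusted p = 0.00307). Its relative Rhbg had 7.3, 5.54 and 6.79 FPKM in ground controls and 0, 0 and 1.37 FPKM after unloading (-2.49 ± 0.39 SE, limma adjusted p = 0.00715), with both HU1 and HU2 at 0. Slc4a9, an anion exchanger, was scattered in the controls, with 32.7, 25.5 and 117 FPKM in ground controls and 0, 11.1 and 2.36 FPKM after unloading (-3.78 ± 0.91 SE, limma adjusted p = 0.0296). The count was 3 to 5 whichever library was left out, and 10 with scaling to total reads.

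Podocyte genes are expressed at low levels in whole kidney, and 4 of 12 were not tested. Of the 8 others 3 were lower (median -1.17). Podxl, the surface sialomucin podocalyxin, had 14.2, 18.7 and 12.6 FPKM in ground controls and 4.06, 7.61 and 3.65 FPKM after unloading (-1.44 ± 0.31 SE, limma adjusted p = 0.021). Nphs1, nephrin, had 1.43, 1.94 and 1.95 FPKM in ground controls and 0, 0.582 and 0.2 FPKM after unloading (-1.16 ± 0.27 SE, limma adjusted p = 0.0266). Every control exceeded every unloaded library in both genes. No unloaded library held 1 FPKM of Nphs1, which passed the filter through the controls alone, so that its call supports nothing. Wt1 and Synpo, named after their values were seen as members that did not fall, had differences of 0.50 and 0.17 and did not pass (limma adjusted p = 0.341 and 0.756). Leaving out GC1, GC2, GC3 or HU3 left 1 lower podocyte gene, and scaling to total reads gave 6.

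Hormone axes of the kidney were represented by few genes. In the phosphate and vitamin D list 5 of 12 were lower and 1 higher. The parathyroid hormone receptor Pth1r had 208, 137 and 188 FPKM in ground controls and 42.6, 60.2 and 45.7 FPKM after unloading (-1.82 ± 0.26 SE, limma adjusted p = 0.00553). Kl, the FGF23 co-receptor klotho, had 29.5, 37.3 and 26.6 FPKM in ground controls and 7.68, 11.8 and 11.1 FPKM after unloading (-1.53 ± 0.26 SE, limma adjusted p = 0.00946). The other renal phosphate cotransporter of this family, Slc34a3, had 11.1, 13.2 and 16.5 FPKM in ground controls and 1.99, 4.77 and 3.06 FPKM after unloading (-1.81 ± 0.31 SE, limma adjusted p = 0.0105). No unloaded library reached a control in these 3 genes. Pdzk1, a scaffold of brush border transporters named after its value was seen, was the gene called higher, with 12, 16.3 and 7.73 FPKM in ground controls and 20.6, 36.4 and 37.1 FPKM after unloading (1.32 ± 0.35 SE, limma adjusted p = 0.0388). The count of lower genes was 3 without GC1, and 5 with any other library left out.

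In the renin-angiotensin system 3 of 8 tested genes were lower and 1 higher. Agt, the angiotensin precursor, had 47.1, 42.5 and 39 FPKM in ground controls and 9.74, 2.89 and 4.52 FPKM after unloading (-2.84 ± 0.37 SE, limma adjusted p = 0.00424). The angiotensin-forming enzyme Ace had 15.3, 10.4 and 10.4 FPKM in ground controls and 2.57, 3.04 and 2.84 FPKM after unloading (-1.75 ± 0.25 SE, limma adjusted p = 0.00568). The groups were apart in both. The receptor Agtr1a had 8.06, 8.68 and 9.44 FPKM in ground controls and 13.7, 20.1 and 19.3 FPKM after unloading, higher in each unloaded library, with a difference of 0.93 ± 0.24 (SE, limma adjusted p = 0.0375) that turned to -0.06 with scaling to total reads. Agtr1a was called only in the fits with all 6 libraries or without HU1, among those leaving libraries out. Renin itself, Ren1, had a difference of 0.03 (limma adjusted p = 0.97) and is named after its value was seen.

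The respiratory chain has subunits encoded in the nucleus and 13 encoded by the mitochondrial genome, and the 2 sets differed in opposite directions. Of 37 nuclear subunits of complex I 17 were lower and none higher, and each of the 37 had a negative difference (median -0.97). Their summed level was 4202 to 4397 FPKM in the ground controls and 1707 to 2480.5 FPKM in the unloaded libraries. Ndufa1 had 353, 299 and 417 FPKM in ground controls and 75.1, 88.2 and 144 FPKM after unloading (-1.83 ± 0.30 SE, limma adjusted p = 0.00934). Ndufa2 had 335, 324 and 393 FPKM in ground controls and 110.4, 137 and 165 FPKM after unloading (-1.36 ± 0.25 SE, limma adjusted p = 0.0128). Ndufa11 had 125, 114 and 168 FPKM in ground controls and 45.9, 53.3 and 58.2 FPKM after unloading (-1.34 ± 0.24 SE, limma adjusted p = 0.012). No unloaded library reached a control in these 3 genes, and HU3 was the nearest to the controls. GC3 was the highest control in each, but the lowest in the sum of all 37 (4202 FPKM, against 4274 and 4397 FPKM in GC1 and GC2). The part of its mitochondrial share of 49.7% was not tested.

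In complexes II to V, 13 of 35 nuclear subunits were lower and none higher (median -0.73). Uqcr10 of complex III had 572, 525 and 575 FPKM in ground controls and 241, 205 and 249 FPKM after unloading (-1.27 ± 0.23 SE, limma adjusted p = 0.0124). Sdhb of succinate dehydrogenase had 179, 183 and 161 FPKM in ground controls and 81.5, 78.2 and 80.9 FPKM after unloading (-1.11 ± 0.21 SE, limma adjusted p = 0.013). Cox7a2 of cytochrome oxidase had 364, 303 and 254 FPKM in ground controls and 97.2, 132 and 134 FPKM after unloading (-1.33 ± 0.26 SE, limma adjusted p = 0.0148). The unloaded values of each gene were close to each other and below every control. Complex I had 1, 4 and 8 lower genes without GC1, GC2 or GC3 and 13, 10 and 9 without HU1, HU2 or HU3. For complexes II to V the counts were 0, 0 and 8, and 10, 11 and 9. With all 9 samples in the fit, the 4-PBA group included, 7 complex I genes and 4 of complexes II to V were lower.

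Proteins of the mitochondrial genome had positive differences in 13 of 13 genes (median 2.70), of which 4 passed. Their summed level was 78718 to 429780 FPKM in the ground controls and 663680 to 1645900 FPKM in the unloaded libraries. Nd3 of complex I (mt-Nd3) had 259, 249 and 644 FPKM in ground controls and 1755, 5419 and 3331 FPKM after unloading (3.19 ± 0.53 SE, limma adjusted p = 0.00934). The gene mt-Atp6 of ATP synthase had 884, 602 and 1999 FPKM in ground controls and 4356, 21293 and 7051 FPKM after unloading (3.09 ± 0.68 SE, limma adjusted p = 0.0221). The other called genes were mt-Nd4l (119, 80.7 and 669 FPKM to 862, 3063 and 1488 FPKM, 3.07 ± 0.80 SE, limma adjusted p = 0.0388) and mt-Co2 (1519, 1239 and 4544 FPKM to 6732, 20889 and 8209 FPKM, 2.36 ± 0.64 SE, limma adjusted p = 0.0438). GC3 was the highest control and HU2 the highest unloaded library in these genes. The differences of mt-Nd4l and mt-Co2 turned to -0.54 and -0.18 with the mitochondrial share as a covariate, which is built from the same reads. The number called was 0 and 1 without GC1 or GC2, 11 without GC3, and 5, 2 and 1 without HU1, HU2 or HU3.

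**Figure D3:**
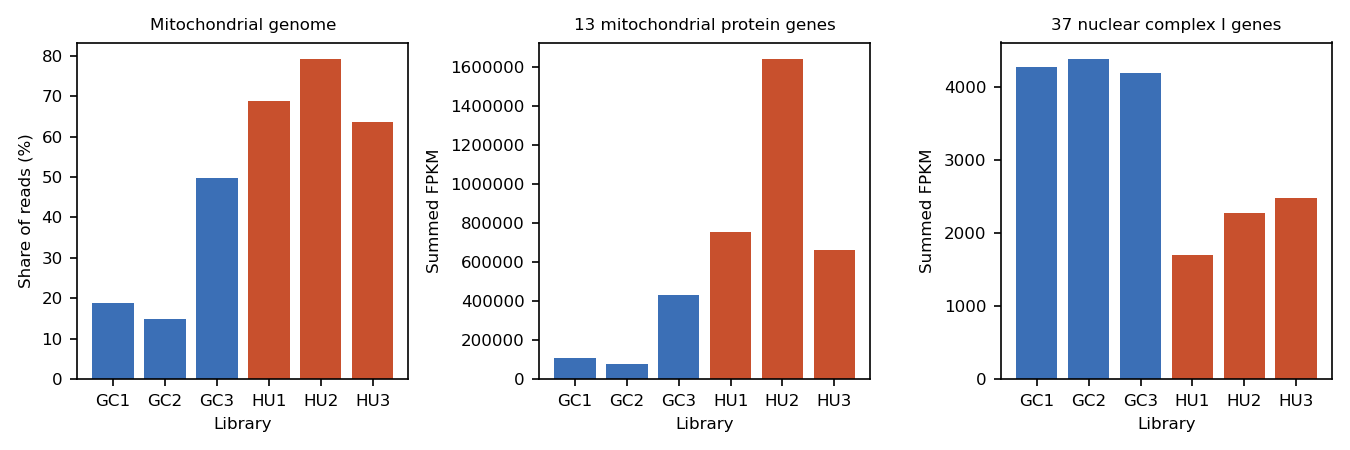
Share of reads from the mitochondrial genome (left, %), summed FPKM of its 13 protein genes (middle) and of 37 nuclear complex I genes (right) in each library (blue, ground control; orange, unloaded; no error bars, as each bar is 1 library). GC3 has 49.7% mitochondrial reads and the lowest control sum of nuclear complex I (4202 FPKM, with 4274 and 4397 FPKM in GC1 and GC2). The unloaded libraries have 63.7% to 79.3% and 1707 to 2480.5 FPKM, and the part of the share was not tested.

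Other mitochondrial pathways gave fewer calls. Of 15 citric acid cycle genes limma called 0, with 2 lower at an unadjusted p under 0.05 and 1 lower in limma-voom on recovered reads (median -0.25). The most abundant, Mdh1, had 269, 271 and 147 FPKM in ground controls and 203, 166 and 196 FPKM after unloading, and its groups overlapped. In fatty acid oxidation 4 of 25 genes were lower and 2 higher, against 8.15% and 8.16% of all genes tested. Of genes with a mean of 20 to 100 FPKM 22.3% were lower, so these counts do not set the list apart. Slc27a2, which activates very long chain fatty acids, had 556, 600.3 and 353 FPKM in ground controls and 37.5, 80.6 and 45.6 FPKM after unloading (-3.22 ± 0.35 SE, limma adjusted p = 0.00279). Cpt2 of the carnitine shuttle had 70.4, 60.2 and 46.9 FPKM in ground controls and 25, 17.9 and 17.5 FPKM after unloading (-1.51 ± 0.26 SE, limma adjusted p = 0.01). GC3 was the lowest control of both genes and above every unloaded library. The higher genes, named after their values were seen, were Acadvl, a mitochondrial dehydrogenase (1.07, limma adjusted p = 0.0339), and the nuclear receptor Ppara (1.10, limma adjusted p = 0.0386). Lower counts were 1 and 2 without GC1 or GC2, and the 2 higher calls were lost without GC1, GC2, GC3 or HU3.

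Gluconeogenesis, by which the proximal tubule makes glucose, had 3 lower genes of 6. Slc37a4, the glucose-6-phosphate transporter, had 60.8, 52.7 and 36.9 FPKM in ground controls and 5.69, 5.62 and 3.71 FPKM after unloading (-3.08 ± 0.28 SE, limma adjusted p = 0.00198). The catalytic subunit G6pc had 32.6, 27.4 and 32 FPKM in ground controls and 3.54, 15.8 and 12.1 FPKM after unloading (-1.66 ± 0.47 SE, limma adjusted p = 0.0483). Pyruvate carboxylase, Pcx, had 44, 67.4 and 30.4 FPKM in ground controls and 9.57, 18.8 and 13.7 FPKM after unloading (-1.66 ± 0.36 SE, limma adjusted p = 0.0211). Unloaded values lay below every control in each of these. Fbp1 and Pck1, both enzymes of the pathway, had differences of -0.75 and -0.62 and did not pass (limma adjusted p = 0.183 and 0.341). Without GC1, GC2 or HU3 the count was 1, without HU1 or HU2 3 and without GC3 4.

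Antioxidant enzymes were lower in 13 of 28 genes and higher in none (median -0.96). Gpx3 (ENSMUSG00000018339, chr11:54902453-54910377), the secreted glutathione peroxidase that the proximal tubule releases to plasma, had 13541, 11440 and 15009 FPKM in ground controls and 2338, 5803 and 2409 FPKM after unloading (-2.05 ± 0.47 SE, limma adjusted p = 0.0255). HU2 held more than either of the other unloaded libraries and less than any control. Gpx1 had 1743, 1642 and 1045 FPKM in ground controls and 489, 300.3 and 448 FPKM after unloading (-1.83 ± 0.33 SE, limma adjusted p = 0.0122). Gpx4, which repairs oxidised lipids, had 378, 385 and 323 FPKM in ground controls and 146, 123 and 144 FPKM after unloading (-1.39 ± 0.22 SE, limma adjusted p = 0.00865). The superoxide dismutase Sod1 had 161, 144 and 148 FPKM in ground controls and 29.4, 46.5 and 48.3 FPKM after unloading (-1.87 ± 0.26 SE, limma adjusted p = 0.00478). The groups were apart in all 3. The count was 1, 3 and 9 without GC1, GC2 or GC3 and 10, 10 and 9 without HU1, HU2 or HU3.

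Cholesterol synthesis genes included 4 lower and 1 higher of 19 (median -0.32), against 8.15% and 8.16% of all genes tested. Ebp, a sterol isomerase, had 29.8, 30.7 and 17.4 FPKM in ground controls and 1.89, 3.06 and 5.42 FPKM after unloading (-2.63 ± 0.37 SE, limma adjusted p = 0.00498). Hmgcs1, which feeds the pathway, had 67.9, 74.3 and 77.6 FPKM in ground controls and 38.8, 30.1 and 30.8 FPKM after unloading (-1.13 ± 0.22 SE, limma adjusted p = 0.0145). The groups were apart in both genes. Without GC1 or GC2, 1 gene of the list was lower, with 4, 5, 4 and 3 without GC3, HU1, HU2 or HU3, and the higher call was lost without any 1 control or without HU3.

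Collagens form the fibres and sheets of the extracellular matrix. Of 18 collagens tested 12 were higher and 1 lower (median 2.36). The summed collagen level was 77.7 to 168 FPKM in the ground controls and 355 to 1126 FPKM in the unloaded libraries. Col14a1 had 3.22, 4.58 and 8.65 FPKM in ground controls and 37.4, 105 and 68.7 FPKM after unloading (3.43 ± 0.44 SE, limma adjusted p = 0.00415). Col15a1, linked to basement membranes, had 3.12, 3.47 and 7.31 FPKM in ground controls and 28.2, 81.1 and 62.6 FPKM after unloading (3.32 ± 0.44 SE, limma adjusted p = 0.0044). The fibrillar Col1a2 had 2.41, 6.09 and 6.74 FPKM in ground controls and 26.2, 60.0 and 43.8 FPKM after unloading (2.88 ± 0.42 SE, limma adjusted p = 0.0057). HU1 was the lowest unloaded library in each of the 3 and still above every control. The same was true of the microfibrillar Col6a1, with 2.65, 4.79 and 7.26 FPKM in ground controls and 25.8, 61.8 and 41.6 FPKM after unloading (2.90 ± 0.41 SE, limma adjusted p = 0.00514). The lower gene was Col4a3, part of the mature glomerular membrane and named after its value was seen, with 8.05, 10.4 and 9.8 FPKM in ground controls and 3.43, 5.54 and 4.29 FPKM after unloading (-0.95 ± 0.26 SE, limma adjusted p = 0.0423). Counts of higher collagens were 5, 7 and 9 without GC1, GC2 or GC3, and 13, 10 and 8 without HU1, HU2 or HU3.

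Basement membrane proteins were higher in 5 of 11 genes (median 1.26). Nid1 (ENSMUSG00000005397, chr13:13437551-13512269), nidogen-1, which ties laminin to collagen IV, had 3.51, 4.88 and 9.5 FPKM in ground controls and 43.6, 126 and 112 FPKM after unloading (3.72 ± 0.47 SE, limma adjusted p = 0.00403). The laminin chain Lama2 had 0.727, 0.874 and 1.55 FPKM in ground controls and 5.51, 18.7 and 22.3 FPKM after unloading (2.83 ± 0.49 SE, limma adjusted p = 0.0104). Lamb1, another laminin chain, had 6.02, 6.22 and 8.35 FPKM in ground controls and 21.1, 39.8 and 38.3 FPKM after unloading (2.07 ± 0.30 SE, limma adjusted p = 0.00596). HU1 was the lowest unloaded library each time, above every control. Lama5 and Agrn, members of the same list chosen after their values were seen, had differences of -1.69 and -1.17 that did not pass (limma adjusted p = 0.0665 and 0.0846). The count was 2, 3 and 4 without GC1, GC2 or GC3, and 7, 4 and 4 without HU1, HU2 or HU3.

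Elastic fibre proteins were higher in 9 of 14 genes and lower in none (median 2.15). Fbln5 (ENSMUSG00000021186, chr12:101746565-101819055), fibulin-5, which organises elastic fibres, had 9.92, 15.7 and 27.1 FPKM in ground controls and 155, 269.8 and 222 FPKM after unloading (3.61 ± 0.38 SE, limma adjusted p = 0.00241). Emilin1 had 2.95, 4.63 and 4.48 FPKM in ground controls and 27.5, 94 and 68.7 FPKM after unloading (3.53 ± 0.44 SE, limma adjusted p = 0.00376). Fbln1 had 0.765, 2.08 and 0.92 FPKM in ground controls and 16.6, 19.4 and 11.2 FPKM after unloading (2.90 ± 0.33 SE, limma adjusted p = 0.00295). In none of them did the groups overlap, and Efemp2, or fibulin-4, differed by 2.31 ± 0.24 (SE, limma adjusted p = 0.00239). Elastin itself, Eln, had a difference of -0.40 (limma adjusted p = 0.493) and is named after its value was seen. The list had 5 higher genes without GC1 and 7 to 10 with another library left out.

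Small leucine-rich proteoglycans bind collagen fibrils and growth factors, and 7 of 10 were higher (median 2.00). Ogn, osteoglycin, had 6.39, 8.87 and 10.9 FPKM in ground controls and 101, 102 and 80.6 FPKM after unloading (3.32 ± 0.25 SE, limma adjusted p = 0.0015). Bgn, biglycan, had 22.5, 25.7 and 32.4 FPKM in ground controls and 158, 342 and 227 FPKM after unloading (3.07 ± 0.32 SE, limma adjusted p = 0.00236). Prelp had 4.17, 5.44 and 6.67 FPKM in ground controls and 28.4, 81.1 and 66.7 FPKM after unloading (3.11 ± 0.40 SE, limma adjusted p = 0.00413). All unloaded values were several times the highest control. Of the other higher members, Ecm2 and Omd had no control at 1 FPKM and passed the filter through the unloaded libraries alone. Between 5 and 7 were higher whichever library was left out.

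Proteases that cut the matrix and their inhibitors were higher in 6 of 17 genes and lower in 2. Ctsk, the collagen-degrading cathepsin K, had 0.952, 1.46 and 0.423 FPKM in ground controls and 12.6, 35.3 and 22.6 FPKM after unloading (3.58 ± 0.40 SE, limma adjusted p = 0.00292). The inhibitor Timp2 had 6.66, 10.7 and 11.3 FPKM in ground controls and 25.8, 58.9 and 50.1 FPKM after unloading (2.07 ± 0.36 SE, limma adjusted p = 0.0104). Timp1 had 0.347, 0.658 and 0 FPKM in ground controls and 10.8, 5.07 and 2.99 FPKM after unloading (2.33 ± 0.43 SE, limma adjusted p = 0.0129), with HU1 the highest there and the lowest for Ctsk and Timp2. No control held 1 FPKM of Timp1, which was tested only because it is high after unloading. The lower genes, Mep1a and Mep1b, encode meprins of the proximal tubule brush border. Mep1a had 212, 196 and 119 FPKM in ground controls and 34.3, 46.6 and 37.2 FPKM after unloading (-2.10 ± 0.29 SE, limma adjusted p = 0.0047). The higher count was 1, 4 and 3 without GC1, GC2 or GC3 and 10, 6 and 4 without HU1, HU2 or HU3.

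In the TGF-beta list, ligands, receptors and SMAD factors were taken with target genes, and 7 of 14 were higher (median 0.90, and 0.05 with scaling to total reads, where all genes stood at -0.83). The target Ctgf, a matricellular protein, had 12, 12.8 and 14.6 FPKM in ground controls and 97.3, 199 and 105 FPKM after unloading (3.18 ± 0.31 SE, limma adjusted p = 0.00201). Fn1, fibronectin, had 1.69, 3.41 and 3.74 FPKM in ground controls and 16.1, 55.8 and 50.3 FPKM after unloading (3.26 ± 0.48 SE, limma adjusted p = 0.00628). Tgfbi had 2.58, 3.48 and 6.76 FPKM in ground controls and 22.3, 37.9 and 26.3 FPKM after unloading (2.55 ± 0.35 SE, limma adjusted p = 0.00484). HU2 was the highest library for each target, and all unloaded values exceeded the controls. Of the receptors, Tgfbr3, the co-receptor betaglycan, had 1.8, 1.98 and 3.45 FPKM in ground controls and 11.9, 19.6 and 15.7 FPKM after unloading (2.30 ± 0.30 SE, limma adjusted p = 0.00417). The ligand Tgfb1 and the signalling factors Smad2, Smad3 and Smad4 did not pass, with differences of 0.68, 0.65, 0.64 and 0.51 (limma adjusted p = 0.404, 0.411, 0.173 and 0.412), and are named after their values were seen. Between 5 and 7 of the list were higher with any library left out.

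**Figure D4:**
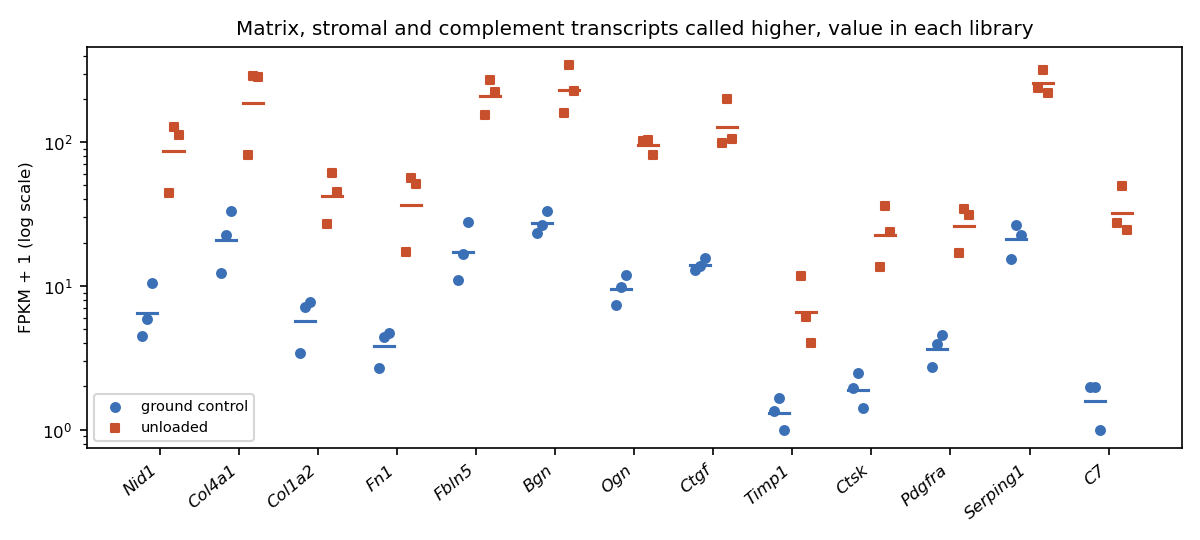
FPKM + 1 (log axis) of 13 matrix, stromal and complement transcripts called higher, with 1 point per library (blue circles, ground control; orange squares, unloaded) and a line at the mean of the log values. All 3 unloaded libraries lie above all 3 ground controls in each gene, with HU1 lowest of the unloaded libraries for Nid1 (43.6 FPKM), Fn1 (16.1 FPKM) and Pdgfra (16.1 FPKM).

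Fibroblasts are the main source of interstitial matrix. Of 9 fibroblast genes 5 were higher and none lower (median 1.96), with a summed level of 29.2 to 69.1 FPKM in the ground controls and 209 to 432 FPKM in the unloaded libraries. Pdgfra, a receptor of interstitial fibroblasts, had 1.73, 2.97 and 3.54 FPKM in ground controls and 16.1, 33.3 and 30.1 FPKM after unloading (2.84 ± 0.35 SE, limma adjusted p = 0.00354). Gsn, gelsolin, had 16.3, 39.4 and 24.1 FPKM in ground controls and 101, 238 and 160.3 FPKM after unloading (2.60 ± 0.41 SE, limma adjusted p = 0.00776). Lum, Dcn and Col14a1 stand in this list as well as in those of the matrix. Of the other fibroblast markers, Cd34, Clec3b and Pi16, named after their values were seen, had differences of -0.21, -0.99 and -0.08 and did not pass (limma adjusted p = 0.743, 0.276 and 0.909). The count of higher markers was 4 or 5 with any library left out and 3 with all 9 samples in the fit, and the part of cell makeup in the matrix values was not tested.

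Smooth muscle and pericyte genes were higher in 3 of 11 (median 0.38, and -0.53 with scaling to total reads). The pericyte receptor Pdgfrb had 4.98, 6.32 and 9.87 FPKM in ground controls and 21.3, 64.6 and 64.2 FPKM after unloading (2.55 ± 0.46 SE, limma adjusted p = 0.0121). The receptor Notch3 had 1.3, 0.95 and 1.86 FPKM in ground controls and 4.6, 7.43 and 4 FPKM after unloading (1.40 ± 0.31 SE, limma adjusted p = 0.022). The groups were apart in both, and Cald1, caldesmon, differed by 1.11 ± 0.26 (SE, limma adjusted p = 0.0254). The list had 0, 1 and 2 higher genes without GC1, GC2 or GC3, 4, 3 and 2 without HU1, HU2 or HU3, and scaling to total reads left 1 higher and 2 lower. Endothelial genes were higher in 3 of 17 (median 0.19, and -0.70 with scaling to total reads). Eng, endoglin, had 23, 33.8 and 42 FPKM in ground controls and 101, 145 and 129 FPKM after unloading (1.92 ± 0.28 SE, limma adjusted p = 0.00628). Plvap of fenestral diaphragms had 30.2, 46.1 and 30.2 FPKM in ground controls and 156, 87 and 82.3 FPKM after unloading (1.55 ± 0.32 SE, limma adjusted p = 0.0181). The factor Erg had 1.11, 1.35 and 1.66 FPKM in ground controls and 9.57, 7.32 and 7.49 FPKM after unloading (1.94 ± 0.25 SE, limma adjusted p = 0.00419). The groups were apart in all 3, and scaling to total reads left 1 higher and 5 lower genes in the list. Higher counts were 2, 3 and 2 without GC1, GC2 or GC3, and 3 without any 1 of HU1, HU2 or HU3. Pecam1 and Cdh5, defining endothelial genes named after their values were seen, had differences of 0.19 and -0.18 and did not pass (limma adjusted p = 0.732 and 0.83).

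Complement genes divided. Of 15 tested 5 were higher and 2 lower. C7 (ENSMUSG00000079105, chr15:4988762-5063740), a component of the membrane attack complex, had 0.979, 0.967 and 0 FPKM in ground controls and 26.6, 49 and 23.6 FPKM after unloading (4.36 ± 0.39 SE, limma adjusted p = 0.00198). Serping1, the C1 inhibitor, had 14.5, 25.5 and 21.7 FPKM in ground controls and 239, 319 and 218 FPKM after unloading (3.61 ± 0.28 SE, limma adjusted p = 0.0015). The protease C1s1 had 3.96, 5.78 and 10.01 FPKM in ground controls and 38.9, 81.4 and 72.2 FPKM after unloading (3.11 ± 0.39 SE, limma adjusted p = 0.00376). The groups were far apart in each, but C7 had no control at 1 FPKM and so was tested only because it is high after unloading. C1ra, which works with C1s1, differed by 3.03 ± 0.51 (SE, limma adjusted p = 0.00946). C1qa, C1qb and C1qc, the part made by macrophages, did not pass, with differences of -1.11, -0.54 and -0.36 (limma adjusted p = 0.464, 0.532 and 0.691). The lower genes were Clu, clusterin (50.3, 62.5 and 34.7 FPKM to 14.8, 4.95 and 7.03 FPKM, -2.42 ± 0.40 SE, limma adjusted p = 0.0092), and Cfp, properdin, named after its value was seen (-1.62, limma adjusted p = 0.0437) and tested only through the controls. The number of higher genes stayed at 5 with any library left out.

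Genes of ER stress, the subject of the study, are read against the shares of all genes tested, 8.16% higher and 8.15% lower. Hspa5, the chaperone BiP that rises when unfolded protein accumulates, had 39.8, 50.2 and 28.4 FPKM in ground controls and 33.2, 41.9 and 43.4 FPKM after unloading. The groups overlapped and the difference was 0.03 ± 0.27 (SE, limma adjusted p = 0.955). Ddit3, the death-linked factor CHOP, had 5.76, 3.8 and 5.54 FPKM in ground controls and 3.42, 5.44 and 6.2 FPKM after unloading (-0.02 ± 0.29 SE, limma adjusted p = 0.975). Atf4, which drives the integrated stress response, had 29.1, 26.5 and 33.9 FPKM in ground controls and 27.3, 19.6 and 27.3 FPKM after unloading (-0.27 ± 0.24 SE, limma adjusted p = 0.472). Both overlapped between groups. Xbp1, the target of IRE1 splicing, had 23.9, 25.3 and 20.1 FPKM in ground controls and 15, 10.8 and 15.7 FPKM after unloading. Its unloaded values were all below the controls, but the difference did not pass (-0.71 ± 0.24 SE, limma adjusted p = 0.0827), and the total does not distinguish spliced from unspliced forms.

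The sensor Atf6 had 2.04, 2.13 and 1.02 FPKM in ground controls and 2.09, 2.16 and 2.49 FPKM after unloading (0.28 ± 0.28 SE, limma adjusted p = 0.535). Eif2ak3, or PERK, had 1.5, 1.6 and 1.29 FPKM in ground controls and 2.95, 1.81 and 1.37 FPKM after unloading (0.27 ± 0.28 SE, limma adjusted p = 0.545). Both overlapped between groups. Ern1 (IRE1) did not reach 1 FPKM in 3 libraries and was not tested. Its values were 0.811, 0.746 and 0.749 FPKM in ground controls and 3.44, 1.42 and 0.685 FPKM after unloading, HU1 being the highest. None of the 5 tested sensors and factors passed limma (0) or limma-voom (0), and the unadjusted p of 1, lower, was under 0.05. In simulated data none of the genes changed by a log2 of 1 was found, and 25.8% of those changed by 2. The simulation changed only 66 to 68 genes at each size among 11590, where 1891 were called here, so its cutoff was stricter. It also added read noise to a spread that already held it. These shares therefore do not measure how often such changes are called in this comparison. Differences beyond 1 did go uncalled in other lists, as for C1qa (-1.11), while the smallest called were 0.79 upward and 0.74 downward. These are RNA levels and do not measure splicing, phosphorylation or protein.

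Of 17 ER chaperones and folding enzymes 1 was lower and none higher (median -0.24). It was P4hb, protein disulfide isomerase, with 162, 193 and 125 FPKM in ground controls and 89.9, 72.3 and 62.4 FPKM after unloading (-1.08 ± 0.26 SE, limma adjusted p = 0.0302), and it was not called without GC1, GC2, HU2 or HU3, nor with scaling to reads outside the mitochondrial genome. The glucose-regulated chaperones Hsp90b1 and Calr, named after their values were seen, had differences of 0.04 and -0.64 (limma adjusted p = 0.941 and 0.133). In ER-associated degradation, which extracts misfolded proteins for destruction, 5 of 15 genes were lower and none higher, against 8.15% of all genes. That share rose with level, from 4.27% of genes under 5 FPKM to 9.13% at 5 to 20 FPKM and 22.3% at 20 to 100 FPKM. Derl1, a membrane channel component, had 22.6, 28.2 and 16.4 FPKM in ground controls and 6.69, 8.88 and 7.75 FPKM after unloading (-1.39 ± 0.27 SE, limma adjusted p = 0.0146). Herpud1, which organises the ubiquitin ligase, had 75.3, 55 and 35.1 FPKM in ground controls and 18.3, 18 and 23.1 FPKM after unloading (-1.37 ± 0.31 SE, limma adjusted p = 0.0236). The ligase Syvn1 had 4.36, 4.86 and 6.24 FPKM in ground controls and 1.44, 2.15 and 1.64 FPKM after unloading (-1.16 ± 0.26 SE, limma adjusted p = 0.0238). In these 3 genes every unloaded value was below every control. The same was true of the extracting ATPase Vcp, with 29.5, 29.1 and 25.6 FPKM in ground controls and 18.2, 15.1 and 14.8 FPKM after unloading (-0.77 ± 0.21 SE, limma adjusted p = 0.0458). None of the list was called without GC1 or GC2, and 2, 5, 2 and 3 were without GC3, HU1, HU2 or HU3.

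**Figure D5:**
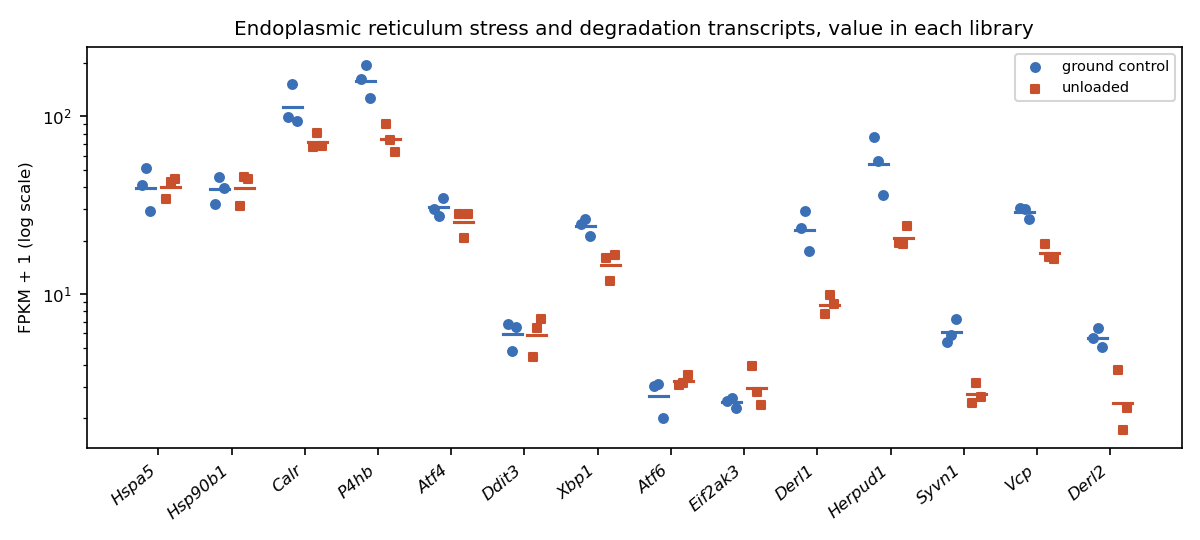
FPKM + 1 (log axis) of 14 ER stress and degradation transcripts, with 1 point per library (blue circles, ground control; orange squares, unloaded) and a line at the mean of the log values. Hspa5 overlaps between groups (28.4 to 50.2 FPKM in controls, 33.2 to 43.4 FPKM after unloading), whereas P4hb, Derl1, Herpud1, Syvn1, Vcp and Derl2 are lower in all 3 unloaded libraries.

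Targets of the integrated stress response were higher in 2 of 14 and lower in none (median 0.01), where 8.16% of all genes tested were higher. Fgf21, a secreted metabolic hormone, had 0 FPKM in GC1, GC2 and GC3 and 2.64, 6.76 and 3.88 FPKM in HU1, HU2 and HU3 (limma adjusted p = 0.00467). It passed the filter through the unloaded libraries alone, and its call supports nothing on its own. Nupr1, a stress-induced chromatin protein, had 1.98, 5.76 and 4.94 FPKM in ground controls and 25.9, 13.5 and 10.6 FPKM after unloading (1.75 ± 0.43 SE, limma adjusted p = 0.0314), with HU1 the highest. Of the list's 21 genes 7 stayed under the level needed for the test. Fgf21 was called whichever library was left out, and Nupr1 only without HU3.

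Calls among other genes of protein quality control were all lower. Of all genes tested 8.15% were lower, and of those with a mean of 20 to 100 FPKM 22.3%. Among 16 heat shock proteins of cytosol and mitochondria 1 was lower, Hspa8 (349.8, 312 and 287 FPKM to 139, 165 and 124 FPKM, -1.15 ± 0.23 SE, limma adjusted p = 0.0171), which was not called without GC1, GC2 or HU3. Of 31 proteasome subunits 5 were lower (median -0.55), among them the ATPase subunit Psmc4 (43.3, 36.3 and 38.6 FPKM to 17.3, 19.8 and 17.3 FPKM, -1.08 ± 0.21 SE, limma adjusted p = 0.0148) and Psma4 (48.5, 54.6 and 43.4 FPKM to 23.7, 27.8 and 19.8 FPKM, -1.02 ± 0.23 SE, limma adjusted p = 0.0238). None was called without GC1 or GC2, and 2 were without GC3 or HU3. With scaling to total reads 21 were lower, and 2 with scaling to reads outside the mitochondrial genome. Of 65 cytosolic ribosomal protein genes limma called 0, with 6 lower at an unadjusted p under 0.05 and 1 lower in limma-voom (median -0.17, and 0.05 with scaling to reads outside the mitochondrial genome). Scaling to total reads gave 15 lower ribosomal genes and a median of -1.22, where all genes stood at -0.83. Their summed level was 10073 to 10652 FPKM in the ground controls and 8560.1 to 9388 FPKM in the unloaded libraries. Rplp1, the most abundant, had 1249, 1025 and 1346 FPKM in ground controls and 678, 818 and 658 FPKM after unloading (limma adjusted p = 0.101).

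Injury and repair genes of the tubule gave calls in both directions. Of 11 tested 3 were higher and 1 lower (median 0.35, and -0.66 with scaling to total reads), against 8.16% and 8.15% of all genes tested. Igfbp7, a secreted binding protein used as an injury marker, had 441, 529 and 393 FPKM in ground controls and 1196, 1794 and 1356 FPKM after unloading (1.66 ± 0.29 SE, limma adjusted p = 0.0104). The adhesion molecule Vcam1 had 0.684, 0.843 and 1.58 FPKM in ground controls and 4.68, 5.69 and 4.44 FPKM after unloading (1.56 ± 0.28 SE, limma adjusted p = 0.0114). Anxa2, annexin A2, had 6.51, 11.5 and 11.3 FPKM in ground controls and 18.5, 19.4 and 22.8 FPKM after unloading (1.01 ± 0.27 SE, limma adjusted p = 0.0431). The groups were apart in these 3 genes. Clu, given above among complement genes, was the lower member. Of the list's 17 genes 6 were too low for the test. Higher counts were 0 and 1 without GC1 or GC2, and 2, 3, 2 and 2 without GC3, HU1, HU2 or HU3.

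In the Bcl2 family, which sets the threshold of cell death, the pro-death Bok (8.27, 9.03 and 7.45 FPKM to 50.3, 28.6 and 27.1 FPKM, 1.92 ± 0.29 SE, limma adjusted p = 0.00638) and the protective Bcl2 (1, 1.02 and 0.738 FPKM to 4.54, 3.19 and 2.72 FPKM, 1.21 ± 0.27 SE, limma adjusted p = 0.0227) rose. Bik, also pro-death, fell (5.26, 6.09 and 5.8 FPKM to 0, 1.82 and 2.5 FPKM, -1.65 ± 0.46 SE, limma adjusted p = 0.0494). The other 8 of 11 did not pass, and of all genes tested 8.16% were higher and 8.15% lower. Only 1 higher call was left without GC1, GC2 or GC3, and Bik was not called without GC1, GC2, GC3 or HU2.

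Regulatory programmes showed few calls. Of all genes tested 8.16% were higher and 8.15% lower, and these counts are too small to set a list apart from that. Klf9, a glucocorticoid-induced factor, was higher in the unloaded libraries (2.19, 4.34 and 3.72 FPKM to 19.9, 18.8 and 19.8 FPKM, 2.25 ± 0.27 SE, limma adjusted p = 0.00337) and was the single call among 11 glucocorticoid-responsive genes and metallothioneins. Of 16 immediate early genes 2 were higher, Klf6 (2.39, 2.76 and 1.6 FPKM to 9.61, 6 and 7.15 FPKM, 1.40 ± 0.28 SE, limma adjusted p = 0.0169) and Junb (3.22, 4.64 and 5.68 FPKM to 15, 9.36 and 12.6 FPKM, 1.27 ± 0.29 SE, limma adjusted p = 0.0238), and none was called without GC1 or GC2. Among 14 clock genes limma called 0, with 2 higher at an unadjusted p under 0.05 and 1 higher in limma-voom. The output genes Dbp, Tef and Nr1d1, the most abundant, had differences of 0.93, -0.74 and 0.77 (limma adjusted p = 0.265, 0.225 and 0.156). Of 18 hypoxia-responsive genes 1 was lower, the angiogenic factor Vegfa, with 30.2, 24.2 and 45.1 FPKM in ground controls and 4.06, 8.62 and 8.05 FPKM after unloading (-2.12 ± 0.35 SE, limma adjusted p = 0.0088). The clock list had 0 calls and the hypoxia list 1 or 2 lower genes whichever library was left out.

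Immune transcripts gave few calls as well, where 8.16% of all genes tested were higher and 8.15% lower, and none of these lists is set apart by its count. Of 19 interferon-stimulated genes 2 were higher, Zbp1 (0.248, 0.45 and 0.569 FPKM to 3.37, 5.01 and 2.97 FPKM, 1.73 ± 0.27 SE, limma adjusted p = 0.00791) and Ifit3 (4.74, 6.27 and 7.64 FPKM to 17.3, 14.9 and 17.2 FPKM, 1.29 ± 0.25 SE, limma adjusted p = 0.0142), with 0 and 1 without GC1 or GC2. No control held 1 FPKM of Zbp1, which was tested only because it is high after unloading. Of 6 genes of MHC class II presentation limma called 0, with 2 lower at an unadjusted p under 0.05 and 0 in limma-voom. Macrophage genes gave 0 of 11, with 2 lower at an unadjusted p under 0.05 and 1 lower in limma-voom, and a summed level of 59.8 to 100.4 FPKM in the ground controls and 41.2 to 91 FPKM in the unloaded libraries. Only 3 of 15 lymphocyte markers reached the level for the test, and 1 of them, Cd3g, was called (0.0943, 0.0894 and 0.335 FPKM to 2.46, 11.4 and 4.37 FPKM, 2.39 ± 0.46 SE, limma adjusted p = 0.0145), though not without any 1 of the controls. It too had no control at 1 FPKM.

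Markers of tissue next to or within the sample varied by library. Adipocyte markers summed to 579.5 FPKM in GC2, with Cfd at 273 FPKM, against 49.3 to 56.6 FPKM in the other 5 libraries. Hepatocyte markers summed to 201 FPKM in HU1, including Alb at 42.6 FPKM, and to 25.4 to 125 FPKM elsewhere. Alb was called higher and Ttr, transthyretin, lower (2.56 ± 0.68 SE, limma adjusted p = 0.0412 and -1.88 ± 0.37 SE, limma adjusted p = 0.0153), both lost without GC1, GC2 or GC3. Haemoglobin and other erythroid genes summed to 495 to 1928 FPKM in the ground controls and 216 to 321 FPKM in the unloaded libraries, with GC3 the highest, and Hbb-bs and Hbb-bt were lower (-2.16 ± 0.35 SE, limma adjusted p = 0.00858 and -1.94 ± 0.43 SE, limma adjusted p = 0.0223). Urothelial genes summed to 13.9 to 37.2 FPKM in the ground controls and 25.1 to 75.7 FPKM in the unloaded libraries, and of 6 tested limma called 0, with 1 higher at an unadjusted p under 0.05 and 0 in limma-voom. No adrenal cortex or skeletal muscle gene was tested, and 4 of 8 adrenal markers were at 0 in all 6 libraries. The skeletal muscle markers summed to at most 0.472 FPKM in ground controls and reached 10.4 FPKM in HU2. The part of these tissues in the results was not tested.

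Among the largest rises of all protein-coding genes were models of uncertain identity. Gm10800 had 0, 0 and 1.66 FPKM in ground controls and 183, 5887 and 8.93 FPKM after unloading (limma adjusted p = 0.0414), with HU2 far above the rest. Gm10563 had 6.94, 2.99 and 20.8 FPKM in ground controls and 57.2, 785 and 266 FPKM after unloading (limma adjusted p = 0.0171). Duxf3, of a repeated gene family, had 0, 0 and 0.0339 FPKM in ground controls and 16.1, 16.8 and 5.63 FPKM after unloading (limma adjusted p = 0.00291) and was tested only because it is high after unloading. Reads from repeated copies cannot be assigned to these models with confidence. Clca3a1, a calcium-activated chloride channel regulator expressed in endothelium, had 1.88, 1.21 and 1.55 FPKM in ground controls and 39.5, 26 and 24.1 FPKM after unloading, with all 3 unloaded libraries far above the controls (3.57 ± 0.27 SE, limma adjusted p = 0.0015).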

How the data were processed

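Strand-marked libraries of poly(A) RNA from kidney were sequenced in pairs, according to protocols in the labels. The tools named in the submitters' processing notes are CASAVA, cutadapt and HISAT2, with mm10 as genome, and no version or counter is given in those sources. The authors deposited a table of FPKM for 54532 genes. Each value times gene length and a constant of its library gave whole reads (100% of values within 0.01), from which depths were recovered (7595631 to 15141784 reads). The constant to which FPKM are scaled was 10949000 to 23952100 in ground controls and 3112370 to 6783620 in unloaded libraries, and equals neither total reads nor reads outside mitochondria. A floor of 3 reads is 2.33e-05% to 0.000191% of the latter, for counting error only.

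Values were tested as log2(FPKM + 1) in limma 3.58.1 under R 4.3.3, using empirical Bayes with trend, 6 libraries and no block. This scale understates changes of low genes, since 1 is added to each value. In simulated data a true log2 size of 2 had a median estimate of 1.55 over changed genes of all levels, which were not split by level. FPKM are not counts, so limma-voom on recovered reads was an alternative only. The remaining alternatives were scalings, filters, pseudocounts of 0.1 and 4, the 4-PBA libraries in the fit, a replicate block, protein-coding genes only, the mitochondrial share as a covariate, and each library left out. Summaries and figures used Python 3.11.15, pandas 2.3.3, numpy 2.4.6 and matplotlib 3.10.9. For 98.1% of genes the deposited coordinates match GENCODE release 21 for mouse. Members and gene lists were chosen with earlier results of these data known.

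Named genes are, among called protein-coding genes with groups apart, the 10 largest differences each way (mean of at least 10 FPKM in the higher group) and the 5 most abundant each way. To these come up to 4 called members of each list by p (else the 3 most abundant, or all of a list of 6 or fewer), Hspa5, Ddit3, Atf4, Xbp1, Atf6, Eif2ak3 and Ern1, the 13 mitochondrial protein genes as a list, and exceptions marked in the text. Not every gene so chosen is reported here.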

Additional observations from a re-analysis of the deposited data

Results flagged for a closer look

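Libraries treated with 4-PBA, outside the comparison, were placed on a scale where 0 is the ground control mean and 100 the unloaded mean of each called gene. Over the 1891 called genes the median position was 63.8 for PBA3, 15.3 for PBA1 and -2.84 for PBA2. A control that helped to call the genes cannot be set beside them, so each control was left out of the calls and the mean in turn and placed with the treated libraries on the same genes. Over the 436 genes called without GC1, GC1 stood at -2.90, PBA3 at 67.3, PBA1 at 5.21 and PBA2 at -4.31. Over the 664 called without GC2, GC2 stood at 5.82, PBA3 at 65.8, PBA1 at 15.3 and PBA2 at -0.16. Over the 898 called without GC3, GC3 stood at 9.75, PBA3 at 77.7, PBA1 at 11.1 and PBA2 at -1.42. PBA3 lay far above the left-out control in all 3 comparisons, PBA1 above it by 1.33 to 9.52 points, and neither difference was tested. PBA3 had 67.1% mitochondrial reads, PBA1 15.2% and GC3 49.7%. The part of the mitochondrial share in these positions was not tested.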

How the results depend on the processing

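The 1891 calls (946 higher, 945 lower) became 436 to 2148 when a library was left out (240 to 1121 higher, 196 to 1027 lower), with no filter on low values 476 (230 and 246), and with scaling to total reads 4298 (456 and 3842). A filter at 5 FPKM gave 496 higher genes, and scaling to reads outside the mitochondrial genome 628 lower genes. A covariate for the mitochondrial share left 0 genes in either direction, and the differences of mt-Co2 and mt-Nd4l turned to -0.18 and -0.54. That share did not overlap between the groups, so it cannot be told apart from unloading. With scaling to total reads Agtr1a turned to -0.061. The cause of these shifts was not tested. With all 9 samples, pseudocounts of 0.1 and 4, limma-voom and protein-coding genes only, the count was 1445, 1573, 1858, 2148 and 1705. Replicate numbers were tried as a replicate block: 1278 genes passed, 1216 of them among the 1891. Deviations of same-numbered libraries correlated at 0.026, -0.22 and -0.11, and libraries did not correlate best with their own number. As deviations from means of 3 libraries, these values cannot decide whether the numbers pair the samples. A single read weighs most in HU2, with 1568888 reads outside the mitochondrial genome. Yet HU2 had the most genes of the 6 libraries at 1 FPKM or more (15341) and with a read (21396).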

Other observations

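Calls differed by class of gene. Of 670 pseudogenes 155 were higher and 22 lower (median 0.56), but in 91 of the 155 no control reached 1 FPKM. Further, of 69 small, ribosomal or transfer RNA genes 21 were higher and 8 lower. Of 476 long non-coding genes 73 were higher and 43 lower, and of 10306 protein-coding genes 674 and 868. Pseudogene values may hold reads of the parent gene.

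Gene length went with direction among protein-coding genes. Over 4 groups of near equal size, in the shortest (204 to 2588 bases) 14.2% were lower and 6.05% higher, and in the longest (6323 to 41155 bases) 3.53% were lower and 6.95% higher, with medians of -0.28 and 0.05. The median length was 2916 bases for genes called lower, 4193.5 for those called higher and 4116.5 for all, and the median GC content of their transcripts 52.4%, 49.9% and 50.1%. These values describe the genes and were not tested as a cause.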
